A study of Oncorhynchus mykiss with 42 samples.

Results

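The clones described here are cDNA spots of a rainbow trout nylon array whose signal was lower in cultured than in uncultured testis at both stages studied, and which stayed near their hormone-free level when a gonadotropin was added. They were chosen on the deposited log2 table. Each had a group mean lower by at least 0.8 in hormone-free culture (Ctrl) than before culture (T0), at each of the stages III and I-II. The mean over both stages of FSH minus Ctrl, and that of LH minus Ctrl, each lay between -0.25 and 0.25. These limits kept 57 of the 8175 clones with values (0.697%). They are called the culture-lost clones below, a name for the rule and not for a cause.

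Fragments of whole testis from an all-male trout population were used. The groups were stage III fragments kept for 96 h at 12 °C with FSH or LH, each purified from salmonids and given at 500 ng/mL, or without hormone (Ctrl), stage III testis not cultured (T0, 0 h), and the same 4 groups at stage I-II. All cultured groups shared a modified L15 medium with 2% Ultroser SF, 300 µL per well, replaced at 48 h. Each cultured group had 6 arrays and each T0 group 3, which makes 42 arrays of 1 sample each. The labels number the arrays but tie none to a fish, so p-values measure only the spread between these samples, and the effect of stage and that of the fish it came from cannot be told apart.

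FSH and LH are the pituitary hormones that drive the testis. FSH acts mainly on Sertoli cells, which nurse the germ cells, and LH mainly on Leydig cells, which make androgens. In trout the stage number rises as the tubules fill with more advanced germ cells. A culture removes the testis from the blood and from the pituitary, so a comparison of Ctrl with T0 contains the whole effect of taking tissue out of the animal and keeping it in medium. In RNA from whole fragments, fewer cells of a type and less RNA per cell cannot be told apart.

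The clones are given by their IDs, because no file gives their genes and 0 of the IDs stood in the RefSeq gene table. The tissue could therefore not be checked against its marker genes, and no clone is given a role. The IDs fall into 23 families by their first letters, and 12 of these held a culture-lost clone. The family starting 1rt gave 15 of its 2834 clones (0.529%), and those starting tc gave 42 of 5340. The 2 largest contributors among the tc families were tcbk, with 12 of 1888, and tcba, with 7 of 831. The family tcal stood at the other end of size, with 4 of its 8 clones (50.0%), and is described further on.

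Scanner signals had a median over clones of 85 to 171 intensity units per array, and the columns of the log2 table had medians of 7.15 to 7.17. No pair of arrays of a group was close enough to be 1 sample deposited again: the SD over clones of their difference was 0.251 to 0.544. The membranes also carry a control spot repeated 128 times. Its median signal averaged 120 ± 25.2 in Ctrl and 577 ± 484 in T0 at stage III, and 285 ± 69.9 in Ctrl and 730 ± 206 in T0 at stage I-II (SD, n = 6 and 3). With FSH and LH it averaged 127 ± 21.9 and 131 ± 31.5 at stage III, and 199 ± 25.3 and 125 ± 18.4 at stage I-II (SD, n = 6 each). It was thus lower in culture at both stages. At stage I-II its means were also lower with each hormone than in Ctrl. One T0 array, replicate 5, read 1126 units at stage III, and without it T0 was 2.52 times Ctrl, against 4.81 times with it. The part of this shift in the results below was not tested.

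Over the 57 clones, the cultured groups lay close together and the T0 groups apart. The mean log2 value of the clones, taken on each array, averaged 8.01 ± 0.055 with FSH, 8.05 ± 0.048 with LH, 7.99 ± 0.057 in Ctrl and 9.24 ± 0.046 in T0 at stage III. At stage I-II it averaged 7.90 ± 0.105 with FSH, 7.95 ± 0.041 with LH, 7.90 ± 0.048 in Ctrl and 9.12 ± 0.092 in T0 (SD, n = 6 arrays per cultured group and 3 per T0 group). Ctrl arrays spanned 7.93 to 8.09 and T0 arrays 9.21 to 9.30 at stage III. At stage I-II Ctrl arrays spanned 7.86 to 7.98 and T0 arrays 9.03 to 9.21. No cultured array reached a T0 array, a gap that the rule itself sets.

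**Figure D1:**
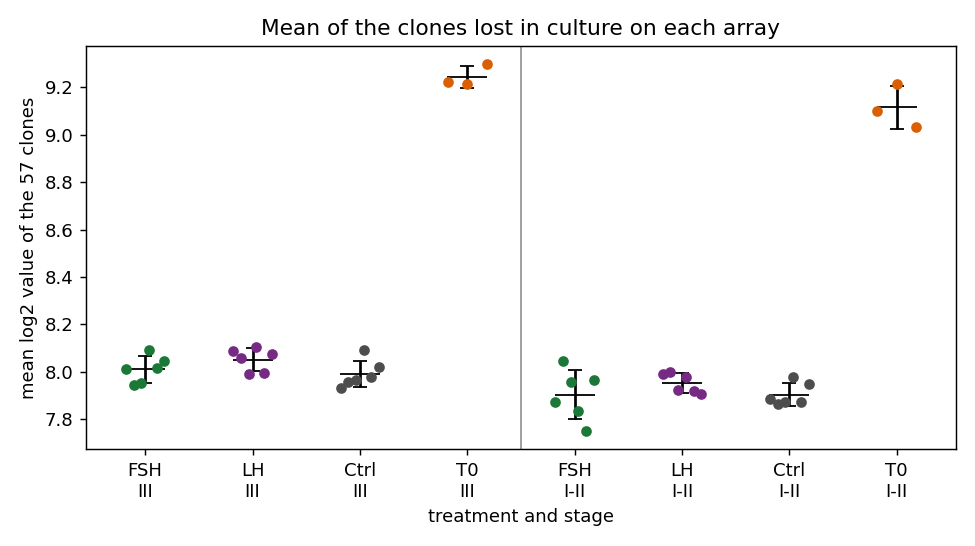
Each point is 1 array and gives the mean log2 value over the 57 culture-lost clones; bars are the group mean and SD, by treatment and stage. Cultured arrays lie between 7.75 and 8.10 and T0 arrays between 9.03 and 9.30.

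The size of the culture difference varied several-fold among the clones. Ctrl minus T0 ran from -2.05 to -0.80 at stage III, with a median of -1.10, which is 2.14-fold lower. At stage I-II it ran from -2.69 to -0.80, with a median of -0.95, or 1.94-fold lower. Over all 8175 clones the median was -0.04 at each stage. Values of -1.5 or below were found for 16 clones at stage III and 11 at stage I-II. These values chose the clones and carry no test. As background, the limma fit called 33.0% of all clones between Ctrl and T0 at stage III and 27.6% at stage I-II, and 16.8% and 13.6% of all clones were called lower.

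Clones lay close to the limits on either side. The 3 clones just inside the culture limit had -0.80 at their weaker stage, and the 3 just outside had -0.79. The largest mean hormone difference inside was 0.24 in size, and the smallest outside was 0.26. Of 81 clones past the culture limit at both stages, 24 were left out by the hormone limits. In 14 of these a hormone mean was past the limit upward and in 10 downward.

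The separation of arrays was nearly complete for single clones. At stage III every Ctrl array lay below every T0 array in 56 of the 57 clones, against 13.4% of all clones. At stage I-II this held for 54, against 15.3% of all clones. For FSH the count was 54 at stage III (15.2% of all clones) and 54 at stage I-II (14.0%), and for LH it was 53 (14.6%) and 52 (16.0%). In 47 clones every cultured array of each kind lay below every T0 array at both stages, against 2.04% of all clones. The rule used these contrasts, so the counts describe how evenly the arrays carried it.

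In 4 clones, picked after their values were seen, Ctrl and T0 arrays overlapped at a stage. Clone tcab0002.e.12 at stage I-II read 7.16 to 7.64 in Ctrl, and 7.34, 7.75 and 10.09 in T0. Clone 1rt41j18_d_e09 at stage I-II read 7.18 to 7.68 in Ctrl, and 7.47, 8.83 and 8.90 in T0. In the first, 1 T0 array was far above the other two, which lay in or near the Ctrl range. In the second 1 low T0 array fell among the Ctrl values. Clone tcbk0005.f.05 at stage I-II read 7.48 to 8.15 in Ctrl, and 8.13, 8.67 and 8.83 in T0. Clone 1rt50l13_b_f07 at stage III read 5.22 to 5.71 in Ctrl, and 5.48, 6.30 and 7.23 in T0. Its T0 arrays had an SD of 0.876, beside a difference between the groups of -0.91.

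Membership rested on some T0 arrays more than on others. Without T0 replicate 2 at stage I-II, 19 of the 57 clones no longer had a culture difference of -0.8 or below, whereas without replicate 1 or 3 it was 1 and 5 clones. At stage III leaving out T0 replicate 4, 5 or 6 cost 4, 2 and 7 clones.

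**Figure D2:**
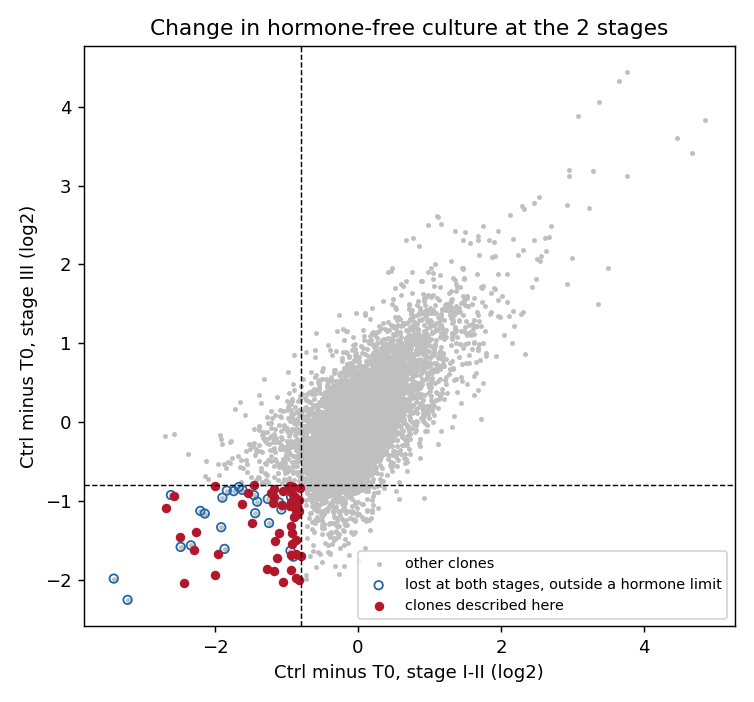
Each point is a clone, with Ctrl minus T0 at stage I-II (x axis) and at stage III (y axis), both in log2 units. Red points are the 57 culture-lost clones, open circles the 24 clones outside a hormone limit, grey points all others; dashed lines mark -0.8.

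By table values the lowest mean culture difference over stages was that of tcay0027.m.22. At stage III it read 5.35 to 6.06 in Ctrl, with a median of 5.74, against 7.58, 7.90 and 7.90 in T0. At stage I-II it read 5.45 to 5.95 in Ctrl, with a median of 5.65, against 7.62, 8.31 and 8.37 in T0. With FSH it averaged 5.59 ± 0.28 at stage III and 5.47 ± 0.42 at stage I-II, and with LH 5.84 ± 0.24 and 5.92 ± 0.15 (SD, n = 6 each). Its spot was above background on all 3 T0 arrays of each stage and not well above background on any cultured array. On scanner signals the clone was therefore at least 2.29-fold lower in Ctrl at stage III and at least 3.78-fold lower at stage I-II. Since its culture values lie at background, its place before the next clone, and the stage III extreme of -2.05, are not established.

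The next was tcaa0002.m.12, which was above background on every array. At stage III it read 7.12 to 8.09 in Ctrl, with a median of 7.43, against 8.73, 8.91 and 9.19 in T0. At stage I-II it read 7.55 to 8.28 in Ctrl, with a median of 7.79, against 10.16, 10.17 and 10.68 in T0. The difference of means was -1.46 at stage III and -2.49 at stage I-II. Ctrl and T0 arrays did not overlap at either stage, and the spot touched one over 4 times brighter.

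Depth of signal limited some of the other clones. Of the 57, 53 were above background on every T0 array and 40 on every array of the study. Between 6 and 9 clones per cultured group had no array above background, 10 different clones in all, so their low values are bounds. In T0 this was so for 0 clones at stage III and 1 at stage I-II. That clone, 1rt27f02_d_c01, also had no Ctrl array above background at stage I-II, so its difference of -0.83 there compares background readings. At stage III 1rt48a12_c_a06 and 1rt50l13_b_f07 were above background on 1 of 3 T0 arrays and on no Ctrl array. The culture loss of these clones at those stages is not established. They were picked after their values were seen.

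With each hormone the values stayed near Ctrl, as the rule requires of the mean over stages. In 10 clones at least 1 cultured group had no array above background. Their hormone differences can be differences between background readings, and a small one does not show that a hormone left the clone unchanged. FSH minus Ctrl ran from -0.28 to 0.37 at stage III and from -0.36 to 0.26 at stage I-II, with medians of 0.00 and 0.01. LH minus Ctrl ran from -0.26 to 0.37 at stage III and from -0.42 to 0.50 at stage I-II, with medians of 0.07 and 0.06. Averaged over stages, the FSH difference was above 0 in 29 clones and the LH difference in 42. The clones were chosen for low Ctrl means, which also enter these differences, and no share of all clones above 0 is given. These 2 counts are therefore descriptive only. In the limma fit over all clones, FSH gave 1.38% called at stage III and 1.71% at stage I-II, and LH 0.563% and 2.97%.

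The limits bound the mean over stages and not each response. A single hormone difference at 1 stage reached 0.25 or more in size in 24 of the 57 clones. Counted per comparison, these were 7 clones for FSH at stage III, 4 for FSH at stage I-II, 7 for LH at stage III and 10 for LH at stage I-II. The standard error of such a difference had a median of 0.14, with a range of 0.11 to 0.226. Responses of about the size of the limit could thus not be measured reliably with 6 arrays against 6.

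**Figure D3:**
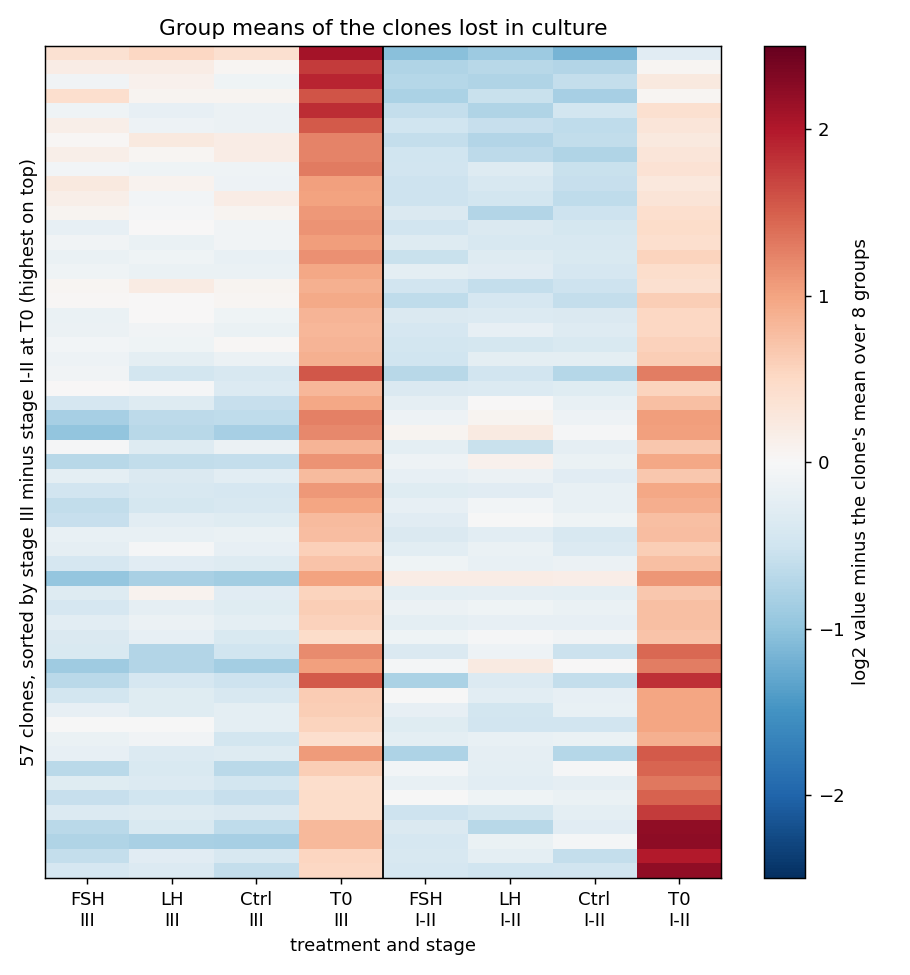
Rows are the 57 culture-lost clones, sorted by stage III minus stage I-II at T0, and columns the 8 groups; colour gives the group mean minus the clone's mean over the 8 groups, in log2 units. The T0 columns hold the highest values in most rows, with stage III darker at the top and stage I-II darker at the bottom.

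The rule set no limit on the difference between stages, which was tested in limma over all 8175 clones, with Benjamini-Hochberg adjustment and an adjusted p under 0.05 called. At T0, 24 of the 57 clones (42.1%) differed between stages, 16 higher and 8 lower in stage III, where 23.6% of all clones were called, 11.6% higher and 12.0% lower. In Ctrl 20 clones (35.1%) were called, 12 higher and 8 lower, against 11.0% of all clones, 5.72% higher and 5.32% lower. With FSH 22 clones (38.6%) were called, 15 higher and 7 lower, against 11.1% of all clones, 5.6% higher and 5.52% lower. With LH 24 clones (42.1%) were called, 17 higher and 7 lower, against 11.6% of all clones, 4.92% higher and 6.64% lower. The 4 shares were all above those of the whole table. By direction this did not hold at T0. There the 8 lower clones, as a part of the 57, were near the 12.0% of all clones, and only the 16 higher were above their share. The culture-lost clones were also brighter than the table, with medians of group means of 7.86 to 9.34 against array medians of 7.15 to 7.17. Fewer of them touched a spot over 4 times brighter (26.3%, against 52.7% of all clones). The whole table is therefore not a like background, and the part of this in the shares was not tested. The tests share their arrays with the rule's contrasts, and the T0 arrays are the ones that made the clones pass it.

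The median stage difference over the 57 clones was small, with clones on both sides of 0 and most of them not called in any given condition. At T0 33 clones lay above 0 and 23 below, and in Ctrl 32 and 25. The median was 0.16 at T0, 0.08 in Ctrl, 0.13 with FSH and 0.12 with LH, and the median over all clones lay between -0.01 and 0.01. The range was widest at T0, with -1.71 to 2.38, against -1.03 to 1.56 in Ctrl. The smallest difference called was 0.49 at T0, with 3 arrays a stage, and 0.36 in Ctrl, with 6. The arrays of the 2 stages did not overlap in 27 clones at T0 (37.3% of all clones), 16 in Ctrl (6.25%), 14 with FSH (5.44%) and 14 with LH (5.75%). Over the 42 clones that touched no far brighter spot, 20 were called at T0, 17 in Ctrl, 20 with FSH and 19 with LH. Over the 40 clones above background on every array, 19, 18, 19 and 21 were called. No share over all clones under the same filters is given, so these counts are descriptive only.

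The clone with the greatest stage difference was tcbk0003.f.09. At T0 it read 11.39, 11.43 and 11.43 in stage III, against 8.84, 9.05 and 9.23 in stage I-II. It was 5.19-fold higher in stage III, a log2 difference of 2.38 ± 0.16 (SE; limma adjusted p = 5.6e-16). In Ctrl it read 9.59 to 9.94 in stage III, with a median of 9.73, against 7.92 to 8.41 in stage I-II, with a median of 8.17. The stages stayed apart in culture, by 1.56 ± 0.11 (SE; limma adjusted p = 2.7e-14), which is 2.95-fold. With FSH the difference was 1.43 (limma adjusted p = 3.3e-13) and with LH 1.43 (limma adjusted p = 7.2e-13). Among called clones it had the greatest rise in each of the 4 conditions.

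Clone tcba0027.h.06 was the second riser at T0. It read 12.79, 13.06 and 13.30 in stage III, against 11.31, 11.32 and 11.47 in stage I-II, a difference of 1.68 ± 0.16 (SE; limma adjusted p = 3.0e-11), or 3.21-fold. In Ctrl the means were 11.35 ± 0.13 in stage III and 10.57 ± 0.12 in stage I-II (SD, n = 6), a difference of 0.79 (limma adjusted p = 1.1e-06). Its value at stage I-II in culture lay exactly at the limit of the rule, with Ctrl minus T0 of -0.80.

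The 2 greatest differences in the other direction at T0 were not found again in culture. Clone tcbk0026.d.10 read 8.03, 8.07 and 8.18 in stage III, against 9.44, 9.68 and 10.29 in stage I-II, and was 3.27-fold lower in stage III (log2 difference -1.71 ± 0.25, SE; limma adjusted p = 5.4e-07). In Ctrl it read 6.71 to 7.45 in stage III, with a median of 6.94, and 6.62 to 7.63 in stage I-II, with a median of 7.09, and the ranges overlapped (limma adjusted p = 0.75). It touched a spot over 4 times brighter. Clone tcay0036.k.14 read 8.05, 8.15 and 8.42 in stage III, against 9.52, 9.63 and 9.82 in stage I-II, and was 2.73-fold lower in stage III (-1.45 ± 0.18, SE; limma adjusted p = 2.9e-08). In Ctrl its difference was 0.18 (limma adjusted p = 0.42), with overlapping ranges of 6.93 to 7.78 in stage III and 6.84 to 7.26 in stage I-II.

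The clones called lower and those called higher at T0 had different culture values. The 8 called lower in stage III had a median culture difference of -1.07 at stage III and -2.14 at stage I-II. The 16 called higher had medians of -1.26 at stage III and -0.87 at stage I-II. The median stage difference of the 8 was -1.35 at T0 and -0.30 in Ctrl, and that of the 16 was 0.93 at T0 and 0.48 in Ctrl. All 8, and 13 of the 16, had a smaller stage difference in Ctrl than at T0. The change of a stage difference in culture equals the difference between the 2 culture values, both of which the rule bounds, so this pattern is given with no test. The 8 and the 16 were also picked by their difference at T0, and the T0 means enter both culture values. Smaller differences in Ctrl can follow from that choice, and its part was not tested.

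**Figure D4:**
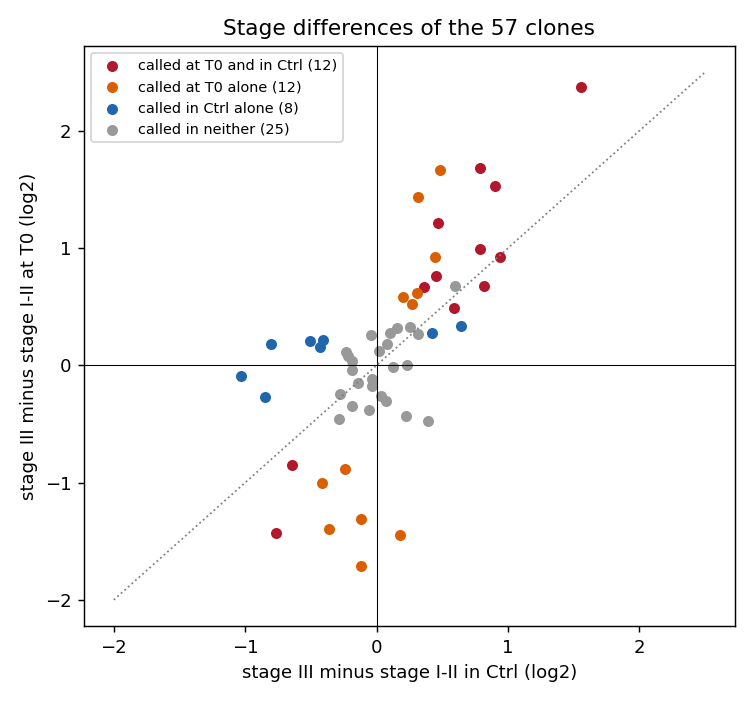
Each point is 1 of the 57 culture-lost clones, with stage III minus stage I-II in Ctrl (x axis) and at T0 (y axis), in log2 units; the dotted line marks equal differences. Colours give the calls: 12 clones at T0 and in Ctrl, 12 at T0 alone, 8 in Ctrl alone and 25 in neither.

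Calls in the 4 conditions can be read together. At least 1 condition was called in 37 of the 57 clones, against 33.8% of all clones, and none in 20. In all 4 conditions 9 clones were higher in stage III, against 1.94% of all clones, and 0 were lower, against 1.22%. In the 3 cultured groups 11 clones were higher throughout (2.28% of all clones) and 5 were lower throughout (2.31%). None of those 5 was called at T0, and 1.05% of all clones shared that pattern. Of those 5, 3 belong to the tcal family described further on. Among these 3, 1 touched both others, and all 3 moved together from array to array. The Ctrl call of another of the 3 was close to the threshold. The 5 can therefore not be counted as 5 independent clones against the shares of all clones. A further 8 clones were called at T0 and in no cultured group, against 13.9% of all clones. Of these, 3 were higher in stage III, against 5.94% of all clones, and 5 were lower, against 7.93%. As parts of the 57 clones, these counts were near the shares of the whole table. No clone was called in opposite directions at T0 and in culture. Among the 9 and the 11 was tcba0021.e.14, picked after its values were seen. It was not above background on any cultured array at stage I-II, nor on any with FSH or LH at stage III. Its calls in culture therefore largely compare readings at background.

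The 2 clones with the greatest fall in Ctrl were among those called in culture alone. Clone 1rt94m04_c_g02 read 8.95 to 9.21 in Ctrl at stage III, with a median of 9.05, against 9.88 to 10.37 at stage I-II, with a median of 10.07. The ranges did not overlap, and the difference was -1.03 ± 0.12 (SE; limma adjusted p = 2.8e-08). It was also the greatest fall with FSH, at -1.16 (limma adjusted p = 1.6e-09), and with LH, at -0.997 (limma adjusted p = 1.1e-07). Before culture it read 10.74, 10.99 and 11.11 in stage III, against 10.83, 11.08 and 11.20 in stage I-II, with overlapping arrays (limma adjusted p = 0.77).

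Clone tcad0009.a.22 followed. It averaged 8.18 ± 0.26 in stage III and 9.03 ± 0.17 in stage I-II in Ctrl (SD, n = 6), a difference of -0.85 (limma adjusted p = 1.4e-06). With LH it was lower in stage III by a log2 difference of -0.95 (limma adjusted p = 2.1e-07). At T0 it read 9.88, 10.01 and 10.24 in stage III, against 10.18, 10.33 and 10.42 in stage I-II (limma adjusted p = 0.29).

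Among the risers in culture, tcaa0001.n.17 averaged 9.78 ± 0.22 in stage III and 8.83 ± 0.22 in stage I-II in Ctrl (SD, n = 6), a difference of 0.94 ± 0.13 (SE; limma adjusted p = 4.9e-07). Its difference at T0 was of like size, 0.93 (limma adjusted p = 1.2e-04). Its Ctrl minus T0 at stage I-II was -1.07 in the table and -0.69 on scanner signals. With FSH, tcad0009.b.14 averaged 8.74 ± 0.12 in stage III and 7.51 ± 0.23 in stage I-II (SD, n = 6; limma adjusted p = 7.3e-10), beside a spot over 4 times brighter. With LH, 1rt165o02_c_h01 averaged 8.32 ± 0.14 in stage III and 7.35 ± 0.11 in stage I-II (SD, n = 6; limma adjusted p = 1.9e-06). All 3 clones were called higher in stage III in all 4 conditions.

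**Figure D5:**
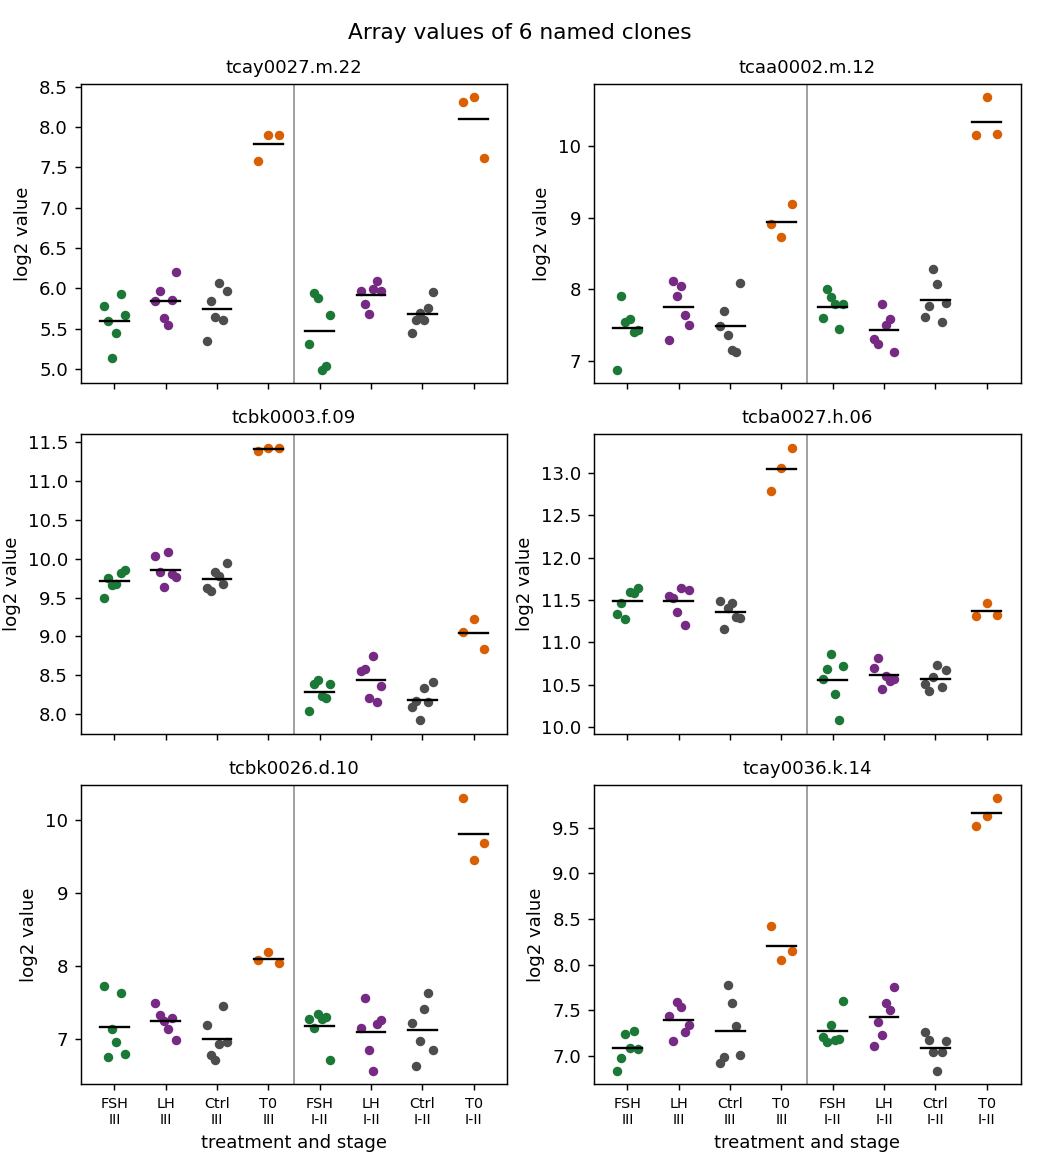
Each panel is 1 named clone, with a point per array and a line at the group mean, in log2 units, by treatment and stage. In tcbk0003.f.09 and tcba0027.h.06 the stages stay apart in culture, and in tcbk0026.d.10 and tcay0036.k.14 they differ at T0 and overlap in culture.

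Whether a hormone difference was itself unequal between stages was tested as an interaction in limma, which the mean limit of the rule does not fix. For FSH 0 of the 57 clones were called, against 0.0% of all clones, and 2 had an unadjusted p under 0.05 (3.51%, against 3.89% of all). For LH 0 were called, against 0.0%, and 4 had an unadjusted p under 0.05 (7.02%, against 6.81% of all). Both shares were near those of the whole table.

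The clone with the smallest p for LH was tcbk0007.j.13. At stage III it averaged 6.55 ± 0.11 with LH and 6.78 ± 0.16 in Ctrl, and at stage I-II 7.15 ± 0.27 with LH and 6.75 ± 0.19 in Ctrl (SD, n = 6 each). The interaction was -0.64 ± 0.18 (SE), which was not called (limma adjusted p = 0.63, unadjusted p = 0.0013). The LH value thus lay below Ctrl at one stage and above it at the other, and the mean over stages that the rule reads was 0.09. Its spot touched one over 4 times brighter. For FSH the smallest p was that of tcay0036.k.14, with an interaction of -0.38 ± 0.18 (SE; limma adjusted p = 1.00).

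The spread within groups was like that of the table as a whole. The pooled SD of a clone within its groups had a median of 0.24 over the 57 clones and 0.252 over all clones. Deviations from the group means had a mean pairwise correlation of 0.0602 over the 57 clones and 0.00132 over all clones, both across the 42 arrays and given as a description.

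Clone IDs were placed on the membrane by their profiles, and ID order gave a partial check. The print order of groups of positions was itself set from the IDs of clones well matched by profile. The check is therefore not independent of the profiles. Of the placed clones, 7745 (94.7%) lay in 1 increasing order of ID and print position, and 55 of the 57 culture-lost clones were among them. The exceptions were tcay0036.k.14 and 1rt165o02_c_h01, whose background and neighbour readings are therefore less sure. The clones lay in 35 of the 64 blocks, with at most 5 in a block. A spot over 4 times brighter was touched by 15 of them (26.3%), against 52.7% of all clones.

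Spots next to the culture-lost clones were lower in culture than the table as a whole. The 358 other clones touching one had a median Ctrl minus T0 of -0.28 at stage III and -0.23 at stage I-II, beside -0.04 over all clones. Of these, 34 at stage III and 15 at stage I-II were at -0.8 or below. The share of all clones at that limit at a single stage is not given, so these counts carry no comparison. The part of signal from neighbouring spots in the results was not tested. Among the culture-lost clones themselves 4 pairs touched, made of 7 clones.

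The tcal family was singled out after its values were seen. Its 4 culture-lost clones, all of plate tcal0001, were g.09, i.08, k.08 and o.16. At stage III their Ctrl minus T0 was -1.08 for g.09, -1.72 for i.08, -2.03 for k.08 and -1.89 for o.16. At stage I-II it was -0.86 for g.09, -1.14 for i.08, -1.04 for k.08 and -1.18 for o.16. The last 3 were called lower in stage III in all 3 cultured groups, with FSH by -0.55, -1.06 and -0.70 (limma adjusted p = 0.0047, 1.0e-07 and 3.2e-04). The call of i.08 in Ctrl was close to the threshold (-0.43, limma adjusted p = 0.036), and it was lost in 7 of the 12 fits with 1 array left out, at an adjusted p of 0.052 to 0.12. None of the 4 was called between stages at T0.

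These 4 clones also moved together from array to array. Deviations from the group means correlated at 0.556 to 0.792 in the 6 pairs over 42 arrays. Positions were shared in part, since k.08 touched both i.08 and o.16. Clone g.09 touched none of the others. Its place rested on the weakest profile match of the 4 (0.431 log2 units, against a median of 0.175 over the 57 clones). The matches of i.08, k.08 and o.16 (0.269, 0.305 and 0.287) were also weaker than that median, so their neighbours are less sure. Clones g.09 and i.08 each touched a spot over 4 times brighter. On scanner signals the Ctrl minus T0 of g.09 at stage III was -0.65. The family's other 4 clones, all of this plate, did not meet the rule. Of these, k.01, m.23 and o.19 were lower in Ctrl than in T0 at both stages. Ctrl minus T0 was -0.91 at stage III and -0.46 at stage I-II for k.01, -0.63 and -0.72 for m.23, and -0.38 and -0.99 for o.19. The remaining clone, a.05, touched i.08 and was higher in Ctrl than in T0, by 0.54 at stage III and 0.17 at stage I-II.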

How the data were processed

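The authors deposited a table of log2 values for the series and, per the file headers, 1 AGScan export of spot intensity per array. Per the labels, radioactive cDNA was made from 5 µg of RNA with an oligo(dT) primer. The normalization of the log2 table is not stated in the sources used here. It is the main source because the rule is defined on it and it alone names clones; 1041 of its 9216 rows held no values. Linear models with 8 group means over 42 arrays were fitted in limma 3.58.1 (R 4.3.3), with Benjamini-Hochberg adjustment over 8175 clones. The fit was run on simulated data for the stage comparison at T0 alone, with independent noise, and the outcome is not given here. That simulation is no check on samples sharing a fish or on correlated clones.

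Scanner exports name positions only. Clones were placed on 9024 clone positions by their profiles over the arrays. The 128 repeated and 64 dim control positions were inferred from the signals and the number of control rows. A spot was above background where its intensity exceeded the median of the dim controls plus 3 scaled median absolute deviations (thresholds of 52.0 to 140 units). For groups without such an array, the fold is a lower bound from the mean of T0 against the lowest signal above background or the spot's own, on quantile-normalised signals. A touching spot is one of the 8 around a spot.

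The clones, limits and tests were chosen with earlier results of these data known. With no gene names, the text names the 2 clones lowest in culture and, per tested comparison, the 2 greatest rises and falls called, or the smallest p. Clones outside this rule are said to be so. Other settings were quantile normalization of the table or scanner signal, fitted signal, a filter on dim clones, moderation, weights, fewer groups, scanner export order as a block and leaving out arrays.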

Additional observations from a re-analysis of the deposited data

Results flagged for a closer look

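In 5 of 102 groups of 6 arrays, 1 array stood far from the others, 96 being groups of the 16 clones named by rule or in the tcal family and 6 of the mean over the 57 clones, where chance alone gives about 1 in 20. Clone tcbk0026.d.10 read 6.71 on FSH replicate 30 at stage I-II, with the others at 7.14 to 7.34. Clone tcaa0001.n.17 read 9.93 on LH replicate 69 at stage III, with the others at 9.53 to 9.64, and 8.51 on LH replicate 33 at stage I-II, with the others at 8.90 to 9.11. At stage III, tcal0001.i.08 read 8.16 on FSH replicate 62, with the others at 8.79 to 8.93, and 8.36 on Ctrl replicate 55, with the others at 8.85 to 9.07.

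The repeated control spot, used in no comparison, was dimmer in Ctrl than in T0. Its mean in T0 was 4.81 times that in Ctrl at stage III and 2.56 times at stage I-II. At stage III the T0 arrays ranged from 210 to 1126 intensity units, and without the highest, replicate 5, the ratio was 2.52.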

How the results depend on the processing

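The rule gave 53 clones on scanner signals. Clones were placed on scanner positions by likeness to their values in the log2 table, so scanner results are not an independent check. How many of the 53 were among the 57 is not given. With single T0 or Ctrl arrays left out the rule gave 41 to 61 clones, of which 38 to 56 were among the 57. The lowest of these counts was without T0 replicate 2 at stage I-II. No FSH or LH array was left out for the rule. The median culture difference at stage III was -1.157 with the fitted scanner signal, and -1.143 to -1.087 with single arrays left out, against -1.095. At stage I-II it was -1.058 with scanner signal and -1.088 with the fitted signal, and -1.025 to -0.918 with single arrays left out, against -0.953. Stage calls ranged over other settings at T0 from 20 to 33, in Ctrl from 18 to 25, with FSH from 19 to 30 and with LH from 19 to 25. With single arrays left out they were 21 to 25, 16 to 20, 19 to 23 and 17 to 23. Among the other settings, the filters on dim clones and on brighter neighbours fitted fewer than the 57 clones. No share of all clones is given for any of these settings, so the counts are descriptive only. The interactions gave 0 calls under all 9 other settings and all 24 fits with an array left out. Of the calls of named clones, 39 were recomputed under 760 alternatives, and 753 kept direction and call. The other 7 were tcal0001.i.08 in Ctrl without single arrays. Most of these clones were named for their large called differences, and all alternatives reuse the same arrays. The count of 753 is therefore not an independent check. Among 10 differences of named clones not called, none became called, and the sign turned in 11 of 193 alternatives. At T0 these were, with scanner signal and fitted signal, tcal0001.g.09 (-0.526 and -0.529), i.08 (-0.21 and -0.216), k.08 (-0.341 and -0.335) and o.16 (-0.198 and -0.19). With single arrays left out, g.09 ran from -0.015 to 0.115 and 1rt94m04_c_g02 from -0.193 to 0.013. In Ctrl tcay0036.k.14 was at -0.062 with the fitted signal. No paired analysis was possible because the groups share no replicate numbers. Only 3 arrays had another export order, and scan dates were not used here. The number of arrays, and for 10 clones the background, limits these values.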
